A study of Mus musculus with 61 samples.

Results

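Ptprc, Csf1r, Tyrobp and Ctss, 4 genes that mark microglia and macrophages, were followed in RNA sequencing libraries of sorted mouse retinal cells. The genes were chosen by name, as 4 of the 15149 genes with a usable name in the deposited table, and all 4 were found in it. They are of interest here because antibodies in the sort were meant to leave out the cells that make them. Retinas were dissociated, and cells that carried Thy1.2 but not Cd11b, Cd11c, Cd34, Cd45.2 or GFAP were collected as retinal ganglion cells, which send their axons into the optic nerve. Ptprc encodes Cd45, so it is itself the gene of a sorting antigen.

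The 61 libraries fell into 5 groups. There were 7 libraries of DBA/2J mice at 9 months given nicotinamide at 500 mg per kg per day, 25 of DBA/2J at 9 months on water, 9 of D2-Gpnmb+ at 9 months on water, 10 of DBA/2J at 4 months on water and 10 of D2-Gpnmb+ at 4 months on water. DBA/2J mice carry mutant alleles of Gpnmb and Tyrp1 and develop pigment dispersion, high eye pressure and glaucoma with age. D2-Gpnmb+ mice are the same strain with a functional Gpnmb allele, still carry the Tyrp1 allele, and are the non-glaucomatous control. By the labels every retina came from an eye whose optic nerve showed no glaucomatous loss of axons. Whether a library is 1 animal or a pool, and its sex, is not given in the labels, so each p value measures only how far these libraries spread, which may be technical. Libraries held 5133114 to 19501444 reads, with a median of 9730486. The values are read counts that the authors scaled for library size. A single read was worth 0.0564 to 0.2154 units, depending on the library.

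Microglia are the resident macrophages of the retina. They depend on signalling through Csf1r, a receptor tyrosine kinase whose ligands are Csf1 and Il34. Tyrobp, also called DAP12, is a membrane adaptor that carries signals from receptors such as Trem2 to the kinase Syk. Ptprc is a receptor tyrosine phosphatase of all nucleated blood cells, where it acts on Src family kinases. Ctss is a lysosomal cysteine protease that trims the invariant chain, the product of Cd74, from MHC class II molecules.

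The bases before the start sites of Ptprc and Ctss were read for 2 core motifs of myeloid genes. Ptprc and Ctss are the 2 of the 4 genes that were matched in RefSeq's promoter table for GRCm38.p6. Whether the motifs bear on the levels of the genes was not tested. GAGGAA is a core of the binding sequence of the myeloid factor PU.1, and GAAA followed by any 2 bases and GAAA again is a core of the interferon response element bound by IRF factors. Both strands were searched, and the 2 motifs do not share a letter in either window shown. Capitals mark matches. The Ptprc window is chr1:138175306-138175555 on the minus strand, and the Ctss window is chr3:95526536-95526785 on the plus strand. Each holds the 250 bases before a start site, printed 5′ to 3′.
Ptprc promoter: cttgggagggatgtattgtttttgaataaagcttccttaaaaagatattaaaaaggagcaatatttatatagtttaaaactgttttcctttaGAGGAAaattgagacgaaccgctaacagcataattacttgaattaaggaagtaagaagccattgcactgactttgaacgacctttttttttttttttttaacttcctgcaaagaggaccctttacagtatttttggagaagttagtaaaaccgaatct
Ctss promoter: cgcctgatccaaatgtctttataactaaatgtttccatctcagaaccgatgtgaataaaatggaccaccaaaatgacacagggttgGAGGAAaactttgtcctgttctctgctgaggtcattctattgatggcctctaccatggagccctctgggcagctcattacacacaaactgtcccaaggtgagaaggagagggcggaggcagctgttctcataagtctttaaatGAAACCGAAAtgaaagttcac
The Ptprc window had GAGGAA once and the Ctss window had each motif once. A second Ptprc start in the table had neither within 250 bases. Of 32851 promoters of that length, 23.3% hold GAGGAA and 2.98% hold the second motif, so a match to the first is common.

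In most libraries the 4 genes were close to absent, and in DBA/2J at 9 months on water they spread from 0 to high values. Ptprc ran from 0 through a median of 0.0787 to 0.187 normalised reads with nicotinamide, and from 0 through 2.02 to 8.85 in DBA/2J at 9 months on water. In D2-Gpnmb+ at 9 months it ran from 0 through 0 to 0.520, in DBA/2J at 4 months from 0 through 0.117 to 0.658, and in D2-Gpnmb+ at 4 months from 0 through 0.117 to 0.619. Ptprc lies on chromosome 1 at 138062861 to 138175708, on the minus strand, in GENCODE's annotation of GRCm38, which also places the other 3 genes. The water group of 9-month DBA/2J held all the high Ptprc values, but its lowest libraries overlapped with every other group.

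Csf1r, the growth factor receptor, lies on chromosome 18 at 61100598 to 61132149 on the plus strand. It ran from 0.0746 through 0.280 to 0.975 with nicotinamide and from 0 through 3.28 to 60.2 in DBA/2J at 9 months on water. Its values were 0 through 0.512 to 2.26 in D2-Gpnmb+ at 9 months, 0 through 0.459 to 0.934 in DBA/2J at 4 months and 0 through 0.249 to 1.05 in D2-Gpnmb+ at 4 months. The order of groups was the same as for Ptprc at the top, and the 4 lower groups overlapped.

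Tyrobp, the adaptor, lies on chromosome 7 at 30413760 to 30417585 on the plus strand. It was at 0 in 6 of 7 nicotinamide libraries, the other having 1 read (0.106). It ran from 0 through 0.764 to 13.5 in DBA/2J at 9 months on water, from 0 through 0 to 0.622 in D2-Gpnmb+ at 9 months and from 0 through 0 to 0.894 in DBA/2J at 4 months. In D2-Gpnmb+ at 4 months all 10 libraries were at 0, which allows up to 0.252 to 0.646 normalised reads per library (3 reads). These limits and the intervals below cover counting error only, since sequenced fragments are copies made by PCR.

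Ctss, the protease, lies on chromosome 3 at 95526786 to 95556403 on the plus strand and had the highest values of the 4. It ran from 0 through 0.159 to 0.758 with nicotinamide, from 0 through 7.20 to 112 in DBA/2J at 9 months on water, from 0 through 0.655 to 4.43 in D2-Gpnmb+ at 9 months, from 0 through 0.163 to 0.731 in DBA/2J at 4 months and from 0 through 0.207 to 0.898 in D2-Gpnmb+ at 4 months. As for the other genes, values above 4.43 were seen in 9-month DBA/2J on water alone, and the groups overlapped at the low end. In bulk libraries fewer cells of a type and less RNA per cell cannot be told apart.

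**Figure D1:**
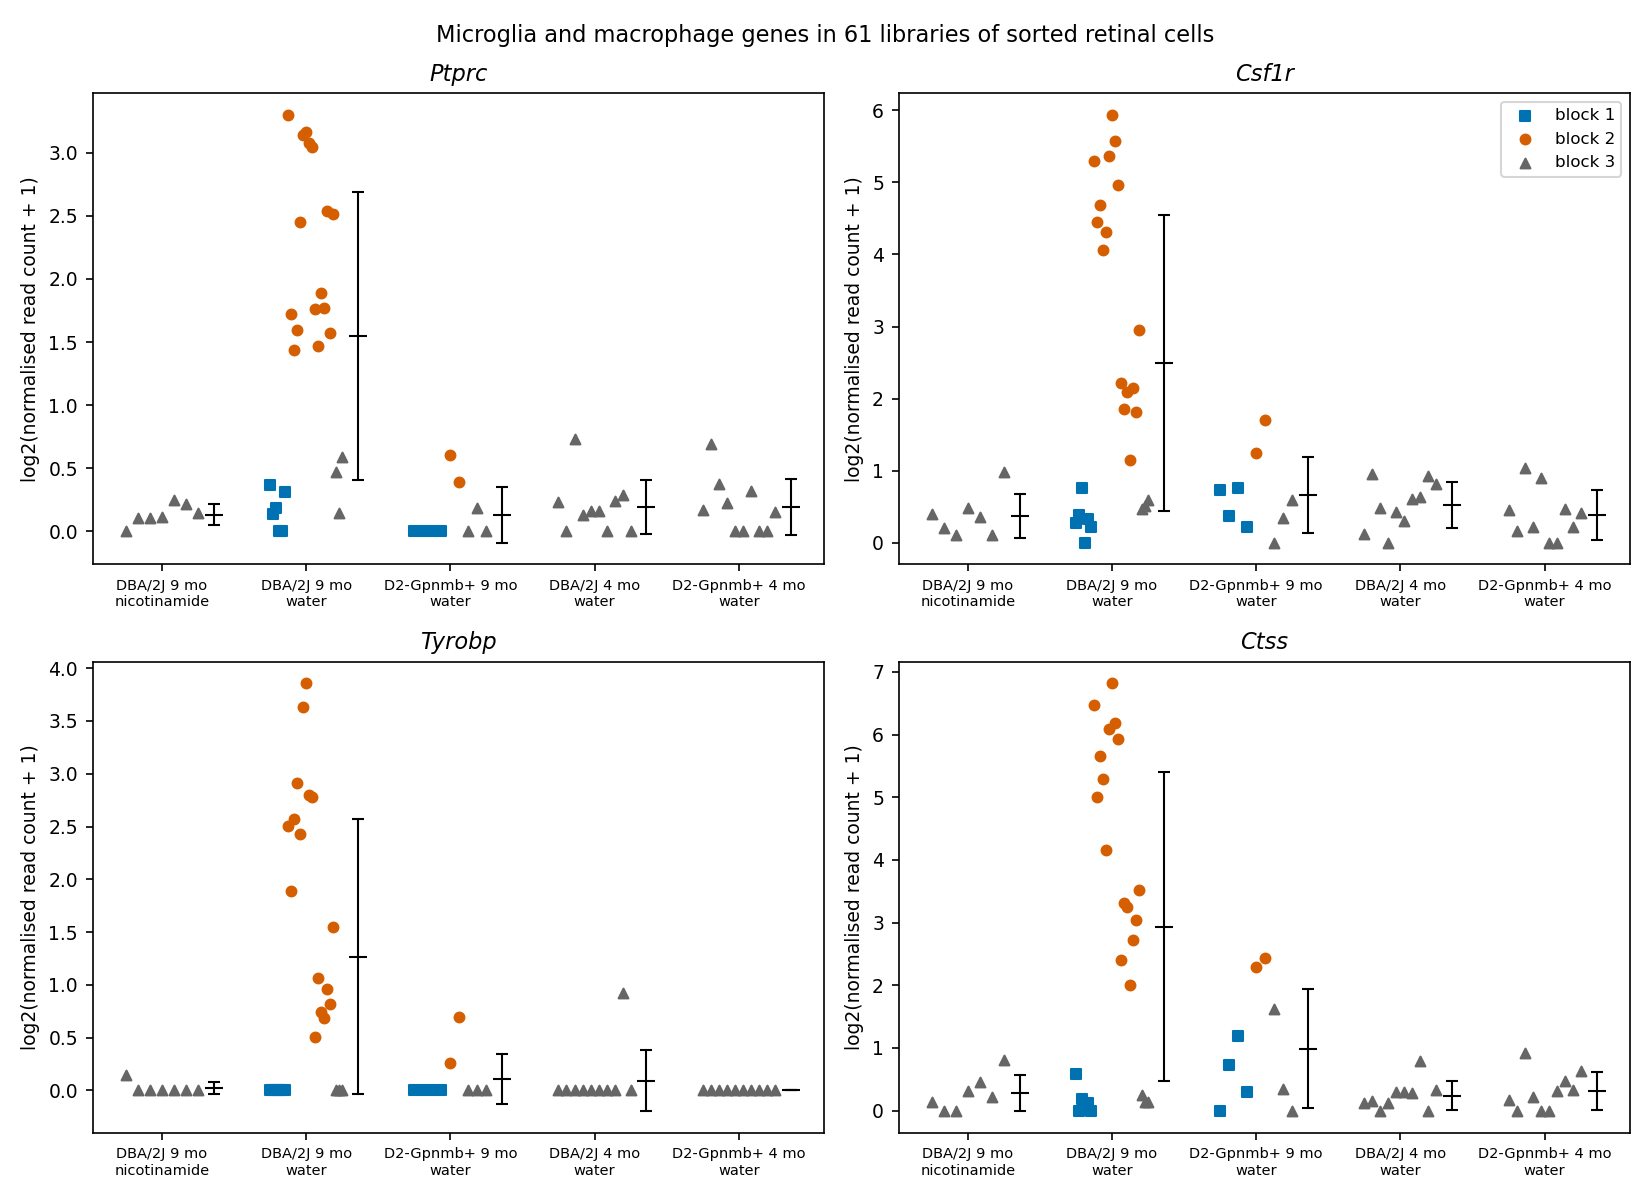
Log2 of the normalised read count plus 1 of Ptprc, Csf1r, Tyrobp and Ctss (y axis) in every library of the 5 groups (x axis), with symbols for 3 stretches of columns in the table (blocks). Bars to the right of the points are the mean and SD of the group. For Ptprc, Csf1r and Ctss all 16 DBA/2J libraries of block 2 lie above every library outside the block, and for Tyrobp 12 of 16 do; both D2-Gpnmb+ libraries of block 2 do for Csf1r and Ctss.

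The high libraries were those of 1 stretch of the table. Its columns had been divided by their order into 3 blocks of 10, 18 and 33 libraries. Of the 9-month water libraries, 6 DBA/2J and 4 D2-Gpnmb+ ones are in block 1, 16 and 2 are in block 2, and 3 and 3 are in block 3. Every 4-month and every nicotinamide library is in block 3. The labels give no meaning for these blocks, and the division was made after expression values had been seen. The numbers in the sample titles fall into 3 series, and in every group the counts of titles per series equal the counts of libraries per block. What the series stand for is not given, and single columns could not be tied to titles. The share of each gene's reads that lay in block 2 was 94.2% for Ptprc (851 of 903 reads), 96.4% for Csf1r (4005 of 4153), 98.9% for Tyrobp (835 of 844) and 98.5% for Ctss (7201 of 7309).

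The same difference between blocks was seen among libraries with the same labels. In DBA/2J at 9 months on water, Ptprc was 4.41 ± 2.62 in block 2 (SD, n = 16) and 0.197 ± 0.174 in blocks 1 and 3 (n = 9). Csf1r was 19.9 ± 18.6 in block 2 and 0.328 ± 0.203 in the others. Tyrobp was 4.15 ± 3.91 in block 2 and 0 in all 9 others. Ctss was 36.4 ± 34.5 in block 2 and 0.136 ± 0.151 in the others. For all 4 genes each of the 16 block 2 libraries was above each of the 9 others, which held for 63 of 15149 genes (0.416%). Of the 35 genes of a macrophage and microglia list that are in the table, which includes these 4, it held for 10, with C1qc, Cd33, Cybb, Itgam, Ly86 and Lyz2 beside the 4. Of 12 resident microglia genes, Selplg was the 1 that did so. None of 14 retinal ganglion cell genes, 15 rod genes, 14 Müller glia and astrocyte genes or 12 endothelial and mural genes did.

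The 2 D2-Gpnmb+ libraries of block 2 stood above the 7 other D2-Gpnmb+ libraries of 9 months for all 4 genes, as did 763 of 15149 genes (5.04%) with so few libraries. Ctss was 3.90 and 4.43 in them, with exact Poisson 95% intervals of 2.97 to 5.02 and 3.36 to 5.74, and ran from 0 through 0.271 to 2.07 in the 7 others. Csf1r was 1.36 and 2.26 in them and at most 0.690 in the others. Ptprc was 0.520 and 0.311 and Tyrobp 0.195 and 0.622, on 3 to 8 reads each. The others reached 0.136 for Ptprc and were at 0 for Tyrobp. Outside block 2, over 43 libraries, no value passed 0.658 for Ptprc, 1.05 for Csf1r, 0.894 for Tyrobp or 2.07 for Ctss.

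Per kilobase of the principal transcript, the mean level in the 16 DBA/2J libraries of block 2 was 26.9 for Ctss, 7.36 for Tyrobp, 4.24 for Csf1r and 0.939 for Ptprc. In the 2 D2-Gpnmb+ libraries of the block the means per kilobase were 3.07 for Ctss, 0.724 for Tyrobp, 0.385 for Csf1r and 0.0883 for Ptprc, which is the same order.

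Inside block 2 the DBA/2J libraries were far from alike. The 9 libraries numbered 7 to 18 had 15.7 to 60.2 normalised reads of Csf1r, 2.69 to 13.5 of Tyrobp and 16.8 to 112 of Ctss. The 7 numbered 19 to 25 had 1.21 to 6.73 of Csf1r, 0.416 to 1.92 of Tyrobp and 3.02 to 10.5 of Ctss. For these 3 genes the 2 runs of numbers did not overlap, while for Ptprc they did, with 1.71 to 8.85 in the first and 1.76 to 4.82 in the second. This division by number was seen in the values themselves and was not tested. The ratio of Ptprc to Csf1r was 0.069 to 0.242 in libraries 7 to 18, 0.657 to 2.00 in libraries 19 to 25, and 0.381 and 0.138 in the 2 D2-Gpnmb+ libraries. The ratio of Tyrobp to Csf1r was 0.122 to 0.416 in the first run and 0.114 to 0.5 in the second, so it covered much the same range.

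**Figure D2:**
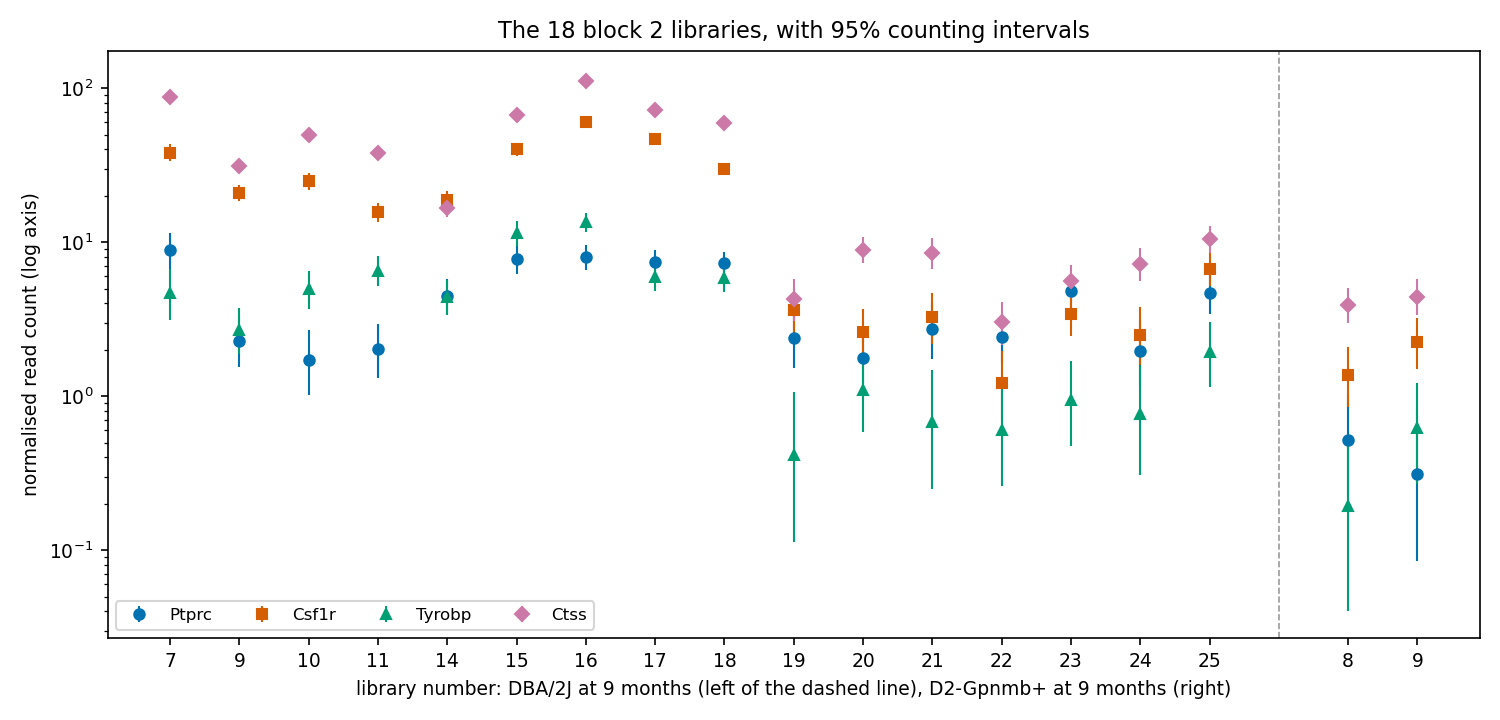
Normalised read counts of the 4 genes (y axis, logarithmic) in each of the 18 block 2 libraries (x axis, by library number), DBA/2J left of the dashed line and D2-Gpnmb+ right of it. Points are single libraries and bars are exact Poisson 95% intervals of the reads. Csf1r, Tyrobp and Ctss are higher in DBA/2J libraries 7 to 18 than in 19 to 25, and Ptprc overlaps between them.

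The strain comparison at 9 months asks whether glaucoma-prone retinas differ from control retinas before axon loss. Ptprc averaged 2.90 ± 2.93 in DBA/2J (SD, n = 25) and 0.107 ± 0.188 in D2-Gpnmb+ (n = 9), Csf1r 12.9 ± 17.5 and 0.690 ± 0.709, Tyrobp 2.65 ± 3.70 and 0.0908 ± 0.210, and Ctss 23.3 ± 32.5 and 1.43 ± 1.70. None of the 4 passed limma's test with Benjamini-Hochberg adjustment over all genes, in which 3 of 13755 genes were called (0.0218%). The log2 differences were 1.42 ± 0.369 for Ptprc (SE, adjusted p 0.1), 1.83 ± 0.662 for Csf1r (0.204), 1.16 ± 0.418 for Tyrobp (0.204) and 1.95 ± 0.805 for Ctss (0.276). All such differences are on the scale of log2 of the value plus 1, which understates changes of low genes. A fit of all 5 groups together, which estimates the spread also from the low groups, called Ptprc (adjusted p 0.00444), Csf1r (0.0278) and Tyrobp (0.0253) and not Ctss (0.0556).

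Within block 2, all 16 DBA/2J libraries were above both D2-Gpnmb+ libraries for Ptprc, 15 of 16 for Csf1r, and 14 of 16 for Tyrobp and for Ctss. Mean levels in DBA/2J were 10.6 times those in D2-Gpnmb+ for Ptprc, 11 times for Csf1r, 10.2 times for Tyrobp and 8.7 times for Ctss. Libraries 7 to 18 carried these means. In libraries 19 to 25 the medians were 2.42 for Ptprc, 3.28 for Csf1r, 0.764 for Tyrobp and 7.20 for Ctss, and the ranges of the last 3 genes overlapped with the D2-Gpnmb+ values. A two-sided exact permutation test of the log2 values, which treats the 18 libraries as exchangeable although they differ by run of numbers, over the 153 ways to pick 2 of 18 libraries gave p = 0.0131 for Ptprc, the smallest it can give, 0.0392 for Csf1r and for Tyrobp, and 0.0784 for Ctss. In limma's fit of these 18 libraries the log2 difference of Ptprc was 1.78 ± 0.508 with an adjusted p of 0.533 over all genes, and the other 3 genes had adjusted p values from 0.908 to 0.96. Outside block 2, with no filter on low values, the differences were 0.22 ± 0.124 for Ptprc, -0.04 ± 0.155 for Csf1r and -0.42 ± 0.215 for Ctss, and Tyrobp had no read in either strain.

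The age comparison in DBA/2J set 25 libraries of 9 months against 10 of 4 months, and all 4 genes were called higher. Ptprc averaged 2.90 ± 2.93 at 9 months and 0.156 ± 0.194 at 4 months, a log2 difference of 1.35 ± 0.348 (SE, limma adjusted p 0.00517). Csf1r was 12.9 ± 17.5 and 0.472 ± 0.321, a difference of 1.97 ± 0.626 (0.0217). Tyrobp was 2.65 ± 3.70 and 0.0894 ± 0.283, a difference of 1.18 ± 0.397 (0.0301). Ctss was 23.3 ± 32.5 and 0.196 ± 0.211, a difference of 2.70 ± 0.749 (0.00951). Of the 13587 genes tested, 22.4% were called in either direction and 9.25% were called higher. The calls held when any 1 of the 35 libraries was left out.

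These age calls rested on block 2, which holds no 4-month library. Without block 2, 9 libraries of 9 months remained, and none of the 4 genes passed the filter on low values. With no filter on low values, the differences were then 0.05 ± 0.123 for Ptprc, -0.13 ± 0.147 for Csf1r, -0.09 ± 0.120 for Tyrobp and -0.07 ± 0.121 for Ctss, with limma adjusted p values from 0.537 to 0.783, and none was called. In the same fit 19.1% of 15135 genes were called, but 6 of the 9 libraries are in block 1 and all 4-month libraries in block 3, so age and block cannot be told apart in that share. With the block as a covariate the difference of Ptprc was 0.21 and that of Csf1r -0.0022, and no member was called (adjusted p 1 for each). The 9-month libraries outside block 2 thus held no called rise of these genes over 4 months.

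Nicotinamide was compared with water in 9-month DBA/2J, 7 libraries against 25. Ptprc averaged 0.0980 ± 0.0614 with nicotinamide and 2.90 ± 2.93 on water, a log2 difference of -1.41 ± 0.412 (SE, limma adjusted p 0.0184). Csf1r was 0.325 ± 0.311 and 12.9 ± 17.5, a difference of -2.12 ± 0.742 (0.0488), and Ctss was 0.233 ± 0.266 and 23.3 ± 32.5, a difference of -2.66 ± 0.889 (0.0389). These 3 genes were called lower, against a water group with 16 libraries in block 2. Without block 2 none of the 4 genes passed the filter on low values. Tyrobp was 0.0151 ± 0.0400 and 2.65 ± 3.70, a difference of -1.25 ± 0.469 that did not pass (0.0659). Of 13925 genes, 15.1% were called in either direction and 5.34% were called lower.

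All 7 nicotinamide libraries lie in block 3, and none in block 2. Against the 9 water libraries outside block 2, again with no filter, the differences were -0.11 ± 0.119 for Ptprc, -0.02 ± 0.151 for Csf1r, 0.02 ± 0.0917 for Tyrobp and 0.10 ± 0.138 for Ctss. None was called (limma adjusted p 0.525 to 0.947), while 12.6% of 15133 genes were. But 6 of these 9 water libraries are in block 1, so nicotinamide and block cannot be told apart in that share. The same limit holds for every age or nicotinamide call without block 2 given below. The calls for Ctss and Csf1r also rested on single libraries. Ctss lost its call when any 1 of the 7 nicotinamide libraries was left out (adjusted p up to 0.0764). Csf1r lost it without any 1 of those 7 and without any 1 of the 16 block 2 water libraries but number 22 (up to 0.094). Ptprc kept its call in all 32 such fits, and Tyrobp gained one when water library 26 or 27 was left out (lowest adjusted p 0.0475). The fall with nicotinamide was thus called only against water libraries that included block 2.

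**Figure D3:**
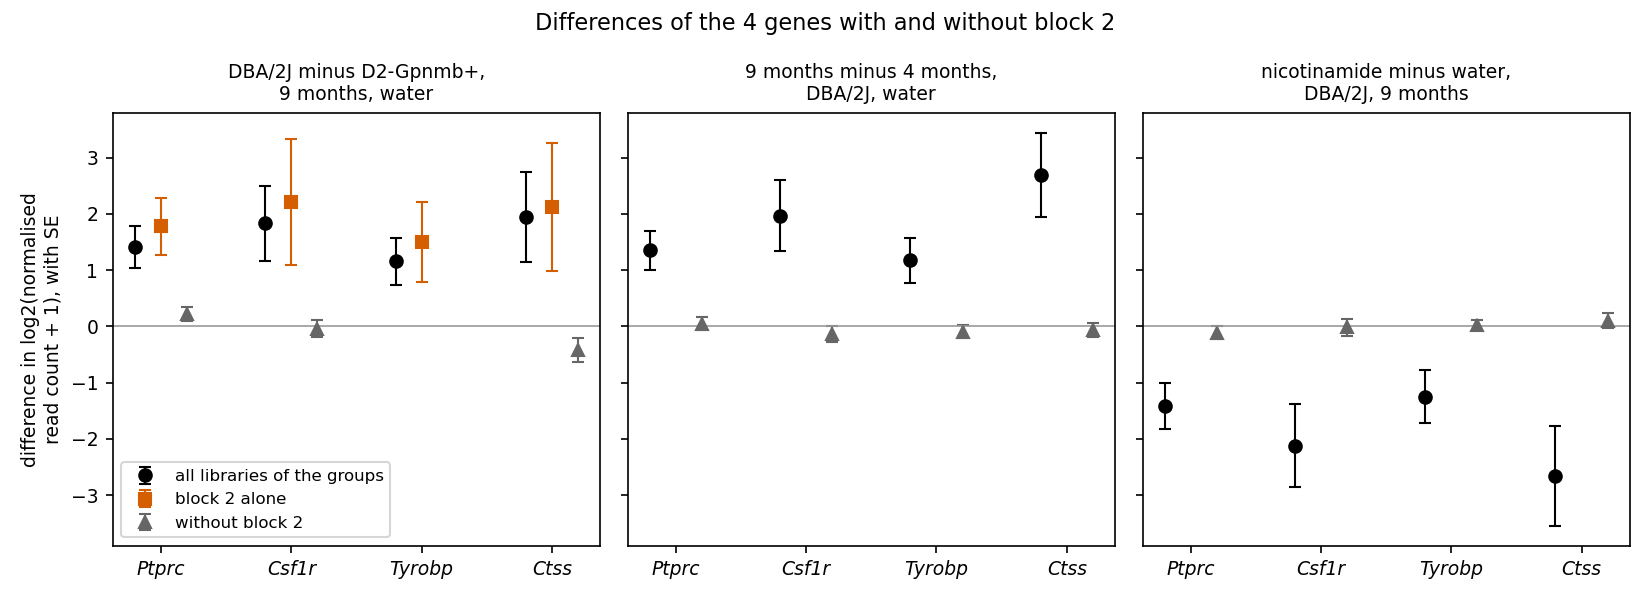
Difference in log2 of the normalised read count plus 1, with SE (y axis), for the 4 genes (x axis) in 3 comparisons. Circles use all libraries of the groups compared, squares block 2 alone, and triangles all libraries but those of block 2; Tyrobp had no read in either strain outside block 2 and has no triangle in the first panel. Differences of age and nicotinamide were between -0.13 and 0.10 without block 2.

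In the other comparisons the 4 genes gave no call. For strain at 4 months (32 of 12804 genes called, 0.25%), for age in D2-Gpnmb+ (3 of 12910, 0.0232%) and for nicotinamide against D2-Gpnmb+ at 9 months (0 of 13054, 0.0%, with 3838 genes at an unadjusted p under 0.05), none of the 4 had a value of at least 1 in enough libraries to be tested. The same filter kept the 4 genes out of the edgeR and DESeq2 fits of these 3 comparisons, so those tools did not test them. With no filter on low values, limma called none of the 4. The difference in the age effect between the strains (53 of 14150 genes, 0.375%) was 1.42 for Ptprc (limma adjusted p 0.127), 1.70 for Csf1r (0.378), 1.07 for Tyrobp (0.371) and 2.01 for Ctss (0.392), and none was called. The age effect in DBA/2J is therefore not shown to differ from that in D2-Gpnmb+ for these genes.

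Other macrophage genes had the same pattern. Of 35 genes of the macrophage and microglia list, 27 were tested for age in DBA/2J and 18 were called higher and none lower, 4 of them the genes above. Their median difference was 1.18, against 0.02 over all genes tested. After Ptprc the smallest adjusted p values belonged to Lyz2, the lysozyme of myeloid cells (2.17 ± 0.562, 0.00564), Laptm5, a lysosomal membrane protein of blood cells (2.17 ± 0.564, 0.00581), and Cybb, the catalytic subunit of the phagocyte NADPH oxidase (1.18 ± 0.309, 0.00599). With nicotinamide 9 of 33 tested genes of the list were called lower and none higher (median -1.10, against -0.03 over all genes), led by Ptprc, Lyz2 (-2.23 ± 0.666, 0.0219), Cybb (-1.18 ± 0.367, 0.0267) and Laptm5 (-2.08 ± 0.671, 0.0323). Both counts were 0 without block 2, where 5 genes of the list passed the filter in each comparison. Most of the list was thus tested only because of high values in 9-month DBA/2J on water. Such genes could hardly be called in the opposite direction, so the lack of opposite calls carries little weight. For strain at 9 months 0 of 28 were called by limma (median 1.10, against -0.03 over all genes), 0 by edgeR, 1 by DESeq2 and 18 in the fit of all 5 groups.

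Genes of resident microglia were looked at in the same fits. For age in DBA/2J, 3 of 8 tested genes were higher, among them Selplg, a selectin ligand (1.13 ± 0.374, limma adjusted p 0.0269), and Cx3cr1, the fractalkine receptor (1.66 ± 0.555, 0.0288). Without block 2 and with no filter, none of 10 was called for age. With nicotinamide none of 11 was called by limma, and 8 were by edgeR. The summed level of the 12 genes in block 2 was 6.97 to 173 in DBA/2J (median 70.9) and 14.9 and 17.1 in D2-Gpnmb+. In blocks 1 and 3 it was 3.66 to 14.7 in DBA/2J at 9 months. In D2-Gpnmb+ at 9 months it was 16.8 to 29.5 in block 1, which reached above the block 2 values of that strain, and 7.29 to 13.7 in block 3. The macrophage and microglia list summed to 44.2 to 565 in the DBA/2J libraries of block 2 (median 198) and to 28.05 to 56.4 in DBA/2J at 9 months elsewhere. In D2-Gpnmb+ at 9 months it summed to 36.3 and 42.3 in block 2, 23.4 to 49.4 in block 1 and 27.2 to 37.6 in block 3. In that strain the sums of this list thus overlapped between block 2 and the other blocks.

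Markers of other cell types were summed in the same sets of libraries. The rod list summed to 3479 to 75286 in the DBA/2J libraries of block 2 (median 24896) and to 10994 and 30408 in its D2-Gpnmb+ libraries, against 6611 to 11437 in DBA/2J at 9 months elsewhere. Rod sums overlapped between the 2 runs of library numbers, with 3479 to 62215 in libraries 7 to 18 and 7945 to 75286 in libraries 19 to 25. High rod sums were more frequent in the second run, where libraries 19 and 22 to 25 had 39009 to 75286. In the first run libraries 11 and 18 had 46177 and 62215, and the rest had at most 29276. This difference between the runs was not tested. The retinal ganglion cell list summed to 160 to 344 in DBA/2J in block 2, with a median of 250.1, and had medians of 155 in DBA/2J in block 1 and 300.1 in DBA/2J in block 3. Of 4 lymphocyte genes in the table, Cd3e, a T cell receptor subunit, reached 20.97 in block 2 library 14, where the list had its highest sum (47.7). That library's Ptprc value was 4.48, below those of libraries 7 and 15 to 18. The part of other cells, and of reads free of any cell, in these results was not tested.

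**Figure D4:**
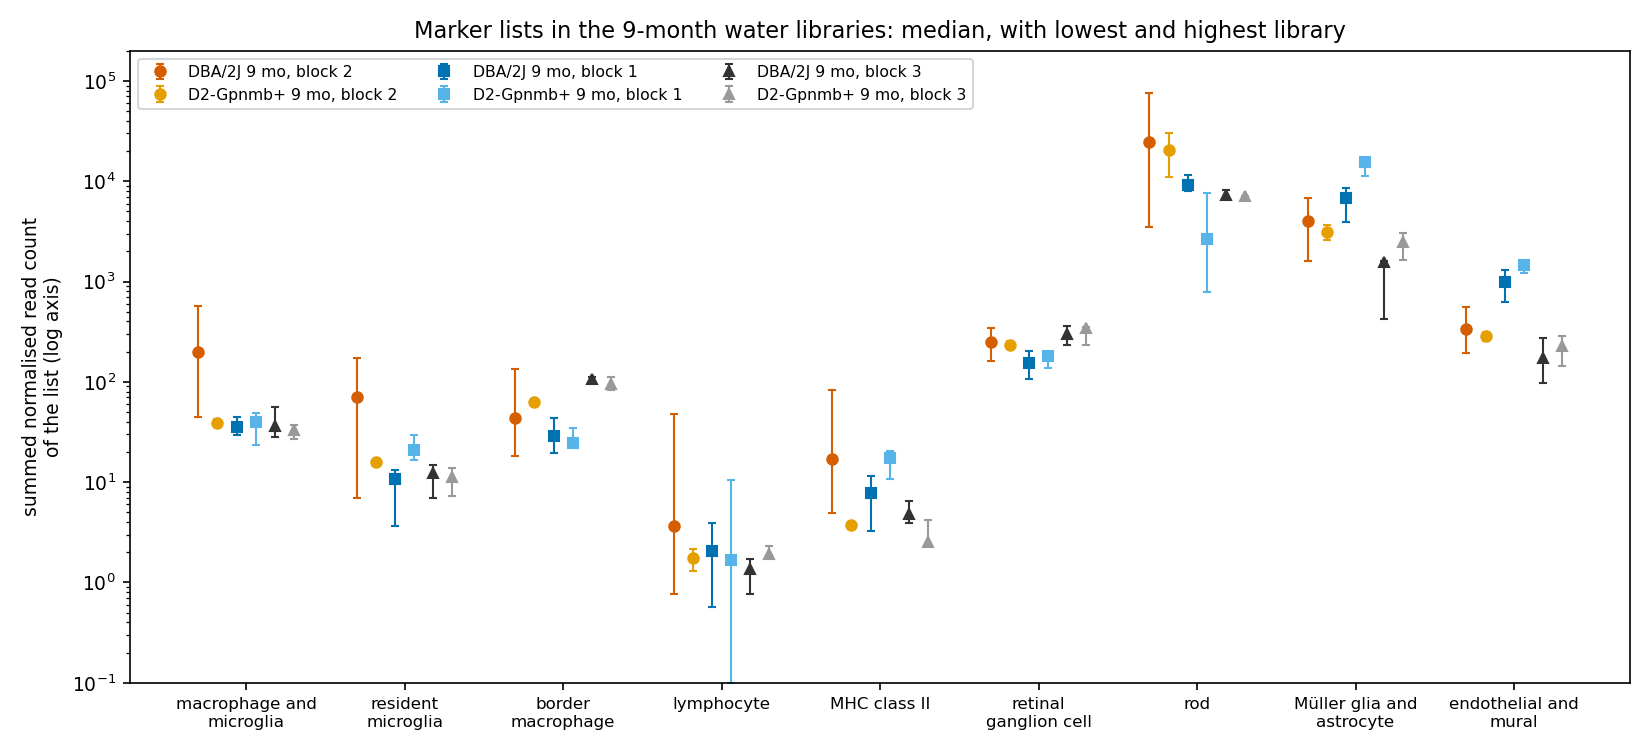
Summed normalised read counts (y axis, logarithmic) of 9 marker lists (x axis) in the 9-month water libraries by strain and block. Points are medians over the libraries of a set (n = 16, 2, 6, 4, 3 and 3 in the order of the legend), and bars run from the lowest to the highest library, with a lowest sum of 0 drawn at the foot of the axis. The macrophage and resident microglia sums are highest in DBA/2J libraries of block 2, and rod sums are high in block 2 of both strains.

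Of the proteins that the sort used, 5 have a gene in the table. Itgam, which encodes Cd11b, was 6.16 in 9-month DBA/2J on water and 0.0425 at 4 months (log2 difference 1.67 ± 0.531, limma adjusted p 0.0215). In block 2 it was 1.06 to 43.1 in DBA/2J and 0.715 and 0.856 in D2-Gpnmb+, and it was at 0 in all 10 block 1 libraries. Nicotinamide against water gave -1.60 ± 0.631 for Itgam (0.0795). Gfap, the intermediate filament of astrocytes and activated Müller glia, was 6.07 at 9 months and 1.41 at 4 months in DBA/2J (1.27 ± 0.329, 0.00525). Unlike Itgam it was also called without block 2 (1.86, 0.00538), where age and block cannot be told apart. The Müller glia and astrocyte list had medians of 6741 in block 1 and 1574 in block 3 in 9-month DBA/2J on water, and 2393 in DBA/2J at 4 months. Cd34, of endothelial and progenitor cells, gave 0.15 for age in DBA/2J (0.691). Thy1, the antigen sorted for, averaged 40.3 with nicotinamide and 25.2 on water in 9-month DBA/2J, and was not called in any of the 7 comparisons.

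Genes around each member were looked at by role. Of the ligands of Csf1r, Csf1 averaged 5.93 in DBA/2J and 8.10 in D2-Gpnmb+ at 9 months, and Il34 averaged 1.80 and 1.68. Neither was called for strain at 9 months or nicotinamide (limma adjusted p 0.681 to 0.964). Csf1 was highest in the 4 D2-Gpnmb+ libraries of block 1 (10.1 to 20.4), where Csf1r was 0.169 to 0.690. Without block 2, Csf1 was called higher with age in DBA/2J (0.90, 0.024). Csf2rb, a shared receptor chain for related cytokines, was higher with age in DBA/2J (0.85 ± 0.258, 0.0156), and Ptprz1, a receptor phosphatase of glia that also binds Il34, was lower (-1.53 ± 0.379, 0.00418) and was higher with nicotinamide (1.90 ± 0.428, 0.00297). Without block 2 the age calls of Csf2rb (0.28, 0.311) and Ptprz1 (-0.59, 0.166) were lost, and Ptprz1 was still called for nicotinamide (0.96, 0.0335).

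Of 9 genes of the Tyrobp pathway in the table, 3 were tested for age in DBA/2J and Tyrobp alone was called. Trem2, the receptor that signals through it, had 1.34 ± 1.79 in DBA/2J libraries of block 2 (SD, n = 16) and 0 in both D2-Gpnmb+ libraries of the block. In DBA/2J, Trem2 was 0.298 to 5.15 in libraries 7 to 18 and 0 to 0.336 in libraries 19 to 25. The 0 values of D2-Gpnmb+ libraries 8 and 9 allow up to 0.195 and 0.233 (3 reads), close to those of libraries 19 to 25. Over the 43 libraries outside block 2 Trem2 reached at most 0.0863. Of 11 substrates and partners of Cd45, Skap2, an adaptor of Src family kinases, was higher with age in DBA/2J (0.87 ± 0.227, 0.00579), also without block 2 (0.87, 0.0263). Pag1, an adaptor that recruits Csk to Src kinases, was lower in DBA/2J than in D2-Gpnmb+ at 9 months (-0.82 ± 0.155, 0.0457), but not without block 2 (-0.75, 0.295) or within it (-0.56, 0.895).

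Cathepsins and cystatins were broadly expressed. Cst3, cystatin C, the secreted inhibitor of Ctss and other cathepsins, averaged 220.3 in DBA/2J at 9 months and 52.9 at 4 months (1.78 ± 0.302, limma adjusted p 0.000204), and 71.3 with nicotinamide, against 220.3 on water (-1.36 ± 0.358, 0.00964). In block 2 it was 106 to 472 in DBA/2J, and in blocks 1 and 3 it was 53.9 to 109. Cst3 was also called higher with age without block 2 (0.71, 0.00757), but not lower with nicotinamide. Of 13 tested genes of the list, 6 were higher with age in DBA/2J and none lower, with Ctsb (0.59 ± 0.124, 0.000967), Ctss and Ctsc (0.83 ± 0.241, 0.0119) next to Cst3. With nicotinamide 5 of 13 were lower, which were Ctsc (-1.19 ± 0.280, 0.00379), Ctsh (-1.47 ± 0.366, 0.00642), Cst3, Ctss and Ctsb (-0.40 ± 0.143, 0.049). Without block 2 and with no filter, Cst3 alone of 14 was called for age, and none of 14 for nicotinamide.

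The MHC class II genes served by Ctss were low. Cd74 was higher with age in DBA/2J (1.49 ± 0.418, limma adjusted p 0.00965), as was H2-Aa (1.21 ± 0.373, 0.0176), out of 5 tested. With nicotinamide Cd74 (-1.56 ± 0.491, 0.028) and H2-Ab1 (-1.01 ± 0.330, 0.0331) were lower. The summed level of the list was 4.89 to 83.4 in DBA/2J in block 2 and 3.44 and 4.05 in D2-Gpnmb+ in block 2. It was 10.6 to 20.51 in the D2-Gpnmb+ libraries of block 1, where the 4 genes were low. None of the 5 class II genes was called for age in DBA/2J or nicotinamide without block 2.

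Lists for other states and kinds of myeloid cell gave mixed results. Of 10 tested genes of disease-associated microglia, 5 were higher and 2 lower with age in DBA/2J. The smallest adjusted p values were those of Gpnmb (1.60 ± 0.237, limma adjusted p 5.71e-05), Igf1, a growth factor (-0.95 ± 0.223, 0.00266), Lpl, lipoprotein lipase (-0.89 ± 0.248, 0.009), and Lgals3, galectin 3 (0.84 ± 0.247, 0.0132). All 4 were also called without block 2, in the same directions. Gpnmb, whose allele separates the strains, was 31.7 ± 16.4 in DBA/2J and 54.2 ± 24.1 in D2-Gpnmb+ at 9 months, and 9.15 ± 3.38 and 85.0 ± 31.0 at 4 months. With nicotinamide Lpl was higher (1.39 ± 0.281, 0.00109), and Gpnmb (-1.23 ± 0.268, 0.00204), Cd9, a tetraspanin (-1.38 ± 0.373, 0.0117), and Apoe, a lipid carrier (-1.44 ± 0.453, 0.0283), were lower. Without block 2, Lpl was still called (1.20, 0.0046), and Gpnmb (-0.72, 0.0578), Cd9 (-1.08, 0.153) and Apoe (-1.23, 0.196) were not. Of border macrophage genes, Stab1, a scavenger receptor, was higher with age in DBA/2J (0.72 ± 0.254, 0.0375) and lower with nicotinamide (-0.85 ± 0.298, 0.0478), and Lyve1, a hyaluronan receptor, was lower with age (-1.05 ± 0.289, 0.00885). Without block 2 the call of Lyve1 was kept (-1.01, 0.0335), and those of Stab1 were lost for age (0.41, 0.173) and nicotinamide (-0.54, 0.122). Age and block cannot be told apart in the kept call. The border macrophage list, which includes Lyve1, summed in 9-month DBA/2J to 19.3 to 43.4 in block 1 and 102 to 113 in block 3. In DBA/2J at 4 months, all in block 3, it summed to 57.3 to 111. Of monocyte and neutrophil genes, Mmp9, a secreted protease, was higher with nicotinamide (1.43 ± 0.302, 0.00156), also without block 2 (1.70, 0.00175), and none of 3 was called for age.

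The genes most like each member over all 61 libraries were nearly all macrophage genes. The measure is Pearson's r of log2 of the value plus 1, among 12335 genes with a mean of at least 1. Genes named Gm with a number, or with names ending in Rik, were left out of this ranking. Ptprc was most like Lyz2 (r = 0.955), Fyb (0.948), Itgam (0.919), Ctss (0.911) and Csf1r (0.905). Csf1r was most like Ly86 (0.976), a partner of a Toll-like receptor homologue, then Tyrobp (0.968), Ctss (0.968), Cx3cr1 (0.963) and C1qb (0.960), a chain of complement C1q. Tyrobp was most like Ly86 (0.974), Csf1r (0.968), Cx3cr1 (0.965), C1qc (0.962) and Itgam (0.956). Ctss was most like Csf1r (0.968), Ly86 (0.954), C1qb (0.949), Tyrobp (0.949) and Fcer1g (0.949), an adaptor of Fc receptors. These values describe the libraries and carry no p, since 18 libraries of 1 block hold nearly all the reads. Within those 18, Csf1r and Ctss had r = 0.971 and Csf1r and Ly86 0.980. These 3 genes were each higher in all of DBA/2J libraries 7 to 18 than in 19 to 25 (Ly86 6.60 to 27.2 and 0.227 to 2.46), so these r values include that split. Ptprc was most like Fyb (0.896), Lyz2 (0.863), Cd74 (0.838), Mpeg1 (0.833) and Itgam (0.826) within the 18.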

How the data were processed

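RNA was sequenced from 61 samples of sorted retinal cells. The deposited signal is a read count per gene that the authors scaled for library size. Per the submitters' processing notes, TopHat2 2.0.7, Bowtie2 2.0.6, HTSeq and the mm10 build were used. Dividing by the value of 1 read gave whole reads (within 0.05) in 100% of values. Of 15171 rows, 22 whose names had become dates were dropped. Columns were mapped to groups by name, and library numbers are those in the column names. Differences were tested with limma 3.58.1 (R 4.3.3; trended, robust) on log2 of the value plus 1, with the libraries of the groups compared, for genes with a value of 1 or more in at least the smallest group's number of libraries, at a Benjamini-Hochberg adjusted p of 0.05 over all genes. Alternatives used edgeR 4.0.16 and DESeq2 1.42.0 on recovered reads, other pseudocounts, filters and scalings, the block, and single libraries left out. The scripts for these tests were tested on simulated data. Named genes were all those of a list past the threshold where 5 or fewer, otherwise the 4 with the smallest adjusted p, with the sort antigens, Csf1, Il34, Cst3 and the 5 genes most like each member. A gene that this rule names is not reported here. The members, lists and blocks were chosen with earlier results of these data known. Trem2, Cd3e, the named genes above in every block 2 library, and the division of block 2 by library number were chosen after their values were seen.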

Additional observations from a re-analysis of the deposited data

Results flagged for a closer look

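Of 15 sets of values of 1 gene in 1 group with 4 to 10 libraries, 7 held a library that stood far from the others by Dixon's criterion, which chance alone meets in about 1 of 20 sets of normally distributed values. That rate does not apply to values of so few reads, where a single read among libraries at 0 meets the criterion. All were high values on 9 reads or fewer, and the cause was not tested. Ptprc was 0.619 normalised reads (5 reads) in D2-Gpnmb+ library 2 at 4 months, with 0.299 next, and 0.658 (5 reads) in DBA/2J library 3 at 4 months, with 0.223 next. Csf1r was 0.975 (9 reads) in nicotinamide library 8, with 0.394 next. Tyrobp was 0.622 (8 reads) in D2-Gpnmb+ library 9 at 9 months, a block 2 library, with 0.195 next in the other block 2 library. Tyrobp was 0.894 (8 reads) in DBA/2J library 9 at 4 months and 0.106 (1 read) in nicotinamide library 1, with all other libraries of those groups at 0. Ctss was 0.731 (4 reads) in DBA/2J library 8 at 4 months, with 0.252 next.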

How the results depend on the processing

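For age and nicotinamide the number of the 4 genes called depended on block 2. For age in DBA/2J it was 4 over all libraries, and 0 with the block as a covariate, in block 3 alone or without block 2, with or without a filter. For nicotinamide it was 3, and 0 in those same settings, 1 after scaling to total reads, and 1 to 4 with single libraries left out. For strain at 9 months it was 0, with 1 by DESeq2 (Ctss, adjusted p 0.0127, the other 3 having none) and 3 in the fit of all 5 groups. The fits without block 2 and the unfiltered fits within blocks were chosen after seeing the data. Differences that changed sign, on the log2 scale with no filter, follow, and none was called. For strain at 9 months they were -0.475 for Ctss in block 3, -0.037 for Csf1r and -0.42 for Ctss without block 2, and -0.19 for Csf1r and -0.38 for Ctss in block 1. For age in DBA/2J they were -0.0022 for Csf1r, -0.092 for Tyrobp and -0.061 for Ctss in block 3 and with the covariate, and -0.13, -0.092 and -0.067 without block 2. For the strain by age difference they were -0.092 for Tyrobp and -0.41 for Ctss in block 3, and -0.17 for Csf1r, -0.092 for Tyrobp and -0.36 for Ctss without block 2. For nicotinamide they were 0.021 for Tyrobp and 0.097 for Ctss in block 3 and with the covariate, and 0.021 and 0.10 without block 2. Within block 3, leaving out single libraries gave -0.80 to 0.0067 for Ctss by strain and -0.036 to 0.023 for Csf1r by age in DBA/2J. By age in D2-Gpnmb+ it gave -0.22 to 0.082 for Csf1r and -0.13 to 0.68 for Ctss, and for nicotinamide against D2-Gpnmb+ it gave -0.094 to 0.20 for Csf1r and -0.71 to 0.10 for Ctss. No paired analysis was possible because the groups share no replicate numbers in the labels. Outside block 2 the 4 genes have few reads, so small differences were not detectable at this depth.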
